A study of Homo sapiens with 12 samples.

Results

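Expression of 44 human genes that act in DNA replication or in mitosis was measured in the NK cell line YT carrying different CD16 receptor constructs. The genes were taken by symbol from a fixed list whose rule used no measured value, although the list was drawn up with earlier results of these data known, and all 44 were found among the 17589 genes of the table. They comprised 23 S phase genes (origin licensing and the MCM helicase, activation of the CMG helicase, the sliding clamp and nucleotide supply, and the E-type cyclins with their E2F factors) and 21 mitotic genes (mitotic cyclins with CDK1 and CDC20, mitotic kinases and the spindle checkpoint, centromere and kinetochore proteins, and spindle motors with chromosome structure and MKI67). All 44 passed the filter on low counts, under which 13657 genes were tested. Poly(A) or ribosome-depleted RNA was sequenced from 12 libraries in 4 groups of 3; the labels name both enrichment steps. The cells of every group had been infected with a lentiviral vector that used the constitutive hEF1A promoter, sorted as eGFP positive, expanded, and left without stimulation. CTRL cells expressed eGFP alone. hnCD16 cells expressed a CD16a with the F158V and S197P changes, which raise antibody affinity and prevent shedding. FR1 cells expressed hnCD16 fused to 2B4, DAP10 and CD3ζ signalling domains, and FR2 cells the hnCD16, DAP10 and CD3ζ fusion that lacks 2B4. All 12 libraries are labelled as the YT line. The study's statistics section speaks in general of 3 independent experiments for in vitro data, while neither the labels nor the sequencing methods tie the 3 libraries of a group to separate transductions or cultures, so the p-values may measure only a technical spread between these libraries.

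In a dividing cell the origin recognition complex, CDC6 and CDT1 load the MCM helicase onto DNA before S phase, and CDC45 with the GINS complex turn it into the active CMG helicase. E2F factors and cyclin E with its kinase drive entry into S phase, while cyclin A, cyclin B and CDK1 drive mitosis, during which kinetochore proteins, checkpoint kinases and motors attach and separate the chromosomes. Many S phase genes are known targets of E2F, and many mitotic genes are known to be controlled through the CHR element and CCAAT boxes of their promoters. In bulk RNA, fewer cells in a phase and less RNA per cell cannot be told apart.

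Each library held 17714550 to 18729013 estimated counts. The receptor transcript ran with the labels: FCGR3A, the gene of CD16a, was at 0 counts in the CTRL libraries at 453 to 480 in hnCD16, at 559 to 567 over FR1 and at 1012 to 1132 over FR2. The cell type markers did not run with the label of an NK cell in every group. The summed level of 19 NK cell markers was 93.52 to 111.7 TPM (a level adjusted for transcript length and library depth) in the 6 CTRL and hnCD16 libraries, where 6 to 8 of the 19 reached 1 TPM, against 7921 to 8595 TPM in the 6 FR libraries, where 12 to 14 did. Most of that sum was GZMB, a cytotoxic granule protease, at 1.09 to 1.93 TPM in CTRL and hnCD16 and 5078.04 to 5656.46 in the FR libraries, and NKG7, at 24.7 to 34.93 against 1736.02 to 1944.46. PRF1, the perforin gene, was at 0.2 to 0.51 against 273.66 to 384.56 TPM. Other NK cell markers did not follow: NCAM1 was under 1 TPM in every library (0 to 0.09 against 0.35 to 0.71), KLRF1, KLRB1 and SH2D1B were under 1 TPM everywhere too, and GZMA (44.31 to 52.2 against 8.96 to 13.73), NCR3 (9.77 to 10.78 against 0 to 1.7) and TYROBP (0.36 to 1.2 against 0) were higher in CTRL and hnCD16. The 15 T cell markers in the table summed to 1697 to 1935 TPM in CTRL and hnCD16, with 13 to 14 of them at 1 TPM or more, and to 45.85 to 54.88 TPM in FR1 and FR2, with 1 to 2 of them; CD3D, a chain of the T cell receptor complex, was at 1172.99 to 1444.42 against 0 to 0.45 TPM. B cell markers summed to at most 24.86 TPM and myeloid markers to at most 6.8 TPM in any library. The CTRL and hnCD16 libraries thus stood apart from the FR libraries in cell type markers, which goes against reading the 12 libraries as alike samples of 1 line. Whether they came from the same cells was not tested, and a difference of FR1 or FR2 from either control in the cell cycle genes cannot be told apart from this split. It touches all 4 comparisons of an FR group with a control group. Comparisons of hnCD16 with CTRL and of FR1 with FR2 lie within the 2 sides of it.

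The first question was how the fusion receptor groups compared with the unfused receptor and with eGFP. S phase genes were more often lower than higher in FR1 and FR2, and most changes were small. In FR1 against hnCD16, 13 of the 23 S phase genes were lower and 7 higher at an adjusted p of at most 0.05 (edgeR quasi-likelihood test, Benjamini-Hochberg over all genes tested), with a median log2 fold change of -0.34 where all genes tested had -0.011. Of the 21 mitotic genes, 6 were lower and 7 higher, with a median of -0.028. Over all genes 40% were lower and 39.1% higher in this comparison, so called genes were common everywhere. Called genes in either direction made up 79.1% of all genes tested, and 33 of the 44 were among the called. Only 5 of the 44 also had a log2 fold change of 1 or more in size, against 38.3% of all genes tested. CDC6 was lower, and CCNE1, CENPE, CENPF and KIF23 were higher.

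In FR2 against hnCD16, 14 S phase genes were lower and 8 higher, with a median of -0.28, and 11 mitotic genes were lower and 5 higher, with a median of -0.19 (-0.027 after the median of all genes of the same decile of GC content was subtracted); over all genes 41.4% were lower and 38.7% higher (80.1% in either direction), with a median of -0.028. Against CTRL, FR1 had 14 S phase genes lower and 5 higher, and 6 mitotic genes lower and 12 higher, where 40.8% of all genes were lower and 39.1% higher (79.9% in either direction). FR2 against CTRL had 16 S phase genes lower and 7 higher, and 8 mitotic genes lower and 6 higher, where 41.7% were lower and 38.5% higher (80.2% in either direction). Over all 44 genes FR1 against CTRL had 17 higher and 20 lower, and 11 higher and 27 lower when libraries were scaled by their totals alone. FR2 against CTRL had 13 higher and 24 lower, and 10 higher and 26 lower scaled by totals alone. By limma on log2(TPM + 1), which differs in unit, offset and test as well, FR2 had 9 higher and 28 lower. The fold threshold was passed by 5 members in FR2 against hnCD16 (background 39.5%), 6 in FR1 against CTRL (background 38%) and 5 in FR2 against CTRL (background 38.2%). BUB1 was the sixth in FR1 against CTRL. The comparisons share their control libraries, so their counts are not independent. For FR1 the median of the mitotic genes was -0.028 against hnCD16 and 0.247 against CTRL, and 0.077 and 0.278 after the same subtraction for GC content. The median of the S phase genes in FR1 was -0.34 against hnCD16 and -0.225 against CTRL, and -0.246 and -0.128 after the subtraction. In FR2 that of the S phase genes was -0.278 and -0.389, and -0.369 and -0.278 after it.

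**Figure D1:**
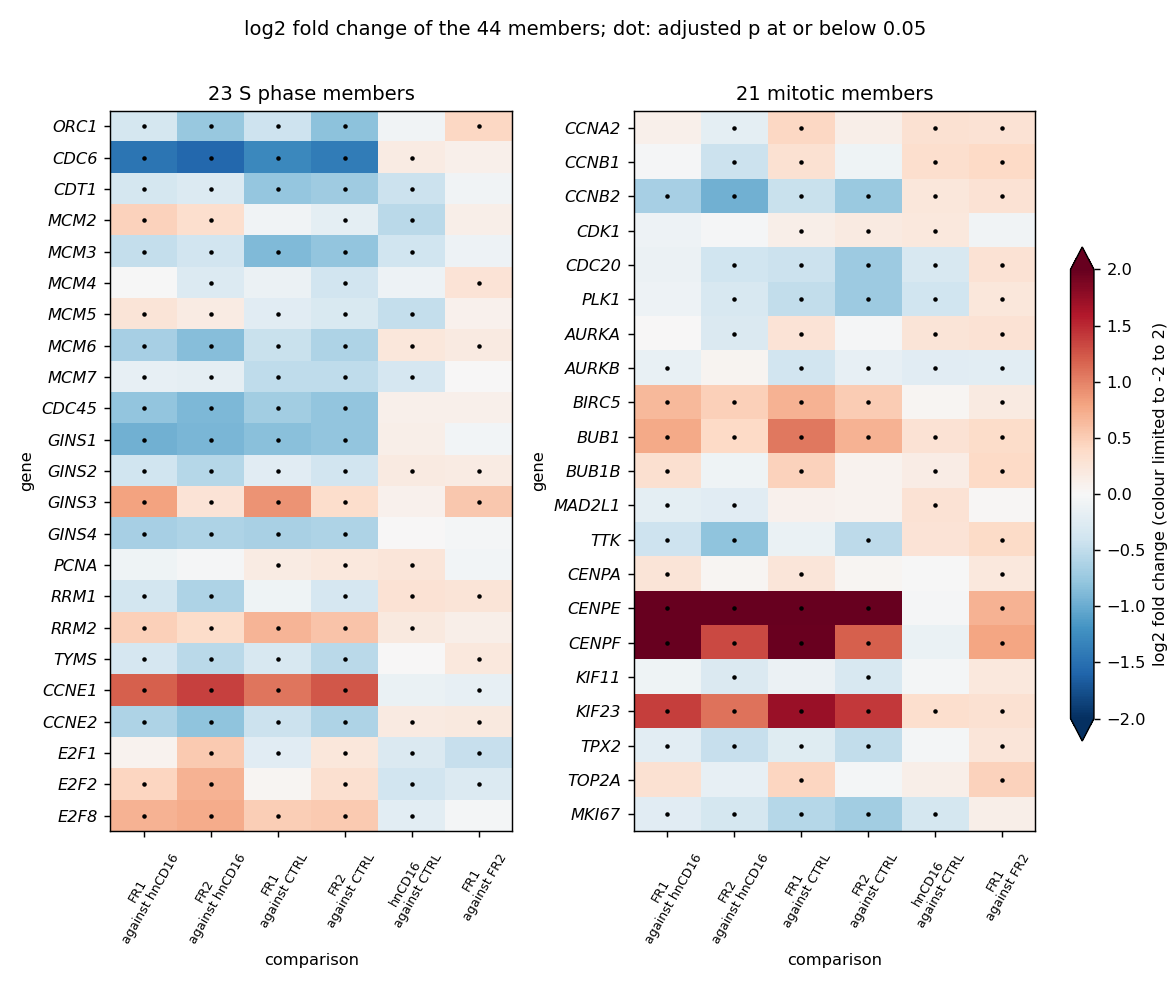
Log2 fold change of each of the 23 S phase and 21 mitotic genes (rows) in the 6 comparisons (columns), with colour limited to -2 to 2 and a dot where the adjusted p was at most 0.05. CENPE has the largest rise and CDC6 the largest fall in the 4 comparisons of an FR group with a control. CENPF and KIF23 come next in FR1. In FR2, CCNE1 (1.36 against hnCD16 and 1.24 against CTRL) exceeds CENPF (1.33 and 1.19). The columns of hnCD16 against CTRL and FR1 against FR2 are paler.

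Levels in every library are given for 9 genes, which were the leaders of the 8 roles by size of change in FR1 against hnCD16, and CENPF. They were picked by a change in these same libraries, so their lack of overlap between FR and control libraries is only a description. The share of all genes without such overlap was not counted, while 79.1% of all genes tested were called in FR1 against hnCD16. Promoters are printed for the gene that fell most (CDC6) and for 3 that rose (CCNE1, CENPF and BUB1). They are the 250 bases before the RefSeq start on the strand of the gene (GRCh38.p14). CCAAT boxes on either strand are in capitals (ATTGG is a box on the opposite strand). CDC6 (chr17:40287629-40287878, plus), CCNE1 (chr19:29811741-29811990, plus), CENPF (chr1:214602945-214603194, plus) and BUB1 (chr2:110678064-110678313, minus) read as follows.
CDC6: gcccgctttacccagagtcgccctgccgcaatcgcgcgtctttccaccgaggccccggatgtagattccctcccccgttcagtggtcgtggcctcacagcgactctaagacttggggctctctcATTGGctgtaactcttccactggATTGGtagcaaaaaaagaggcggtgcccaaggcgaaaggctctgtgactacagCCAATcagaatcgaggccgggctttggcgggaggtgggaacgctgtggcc
CCNE1: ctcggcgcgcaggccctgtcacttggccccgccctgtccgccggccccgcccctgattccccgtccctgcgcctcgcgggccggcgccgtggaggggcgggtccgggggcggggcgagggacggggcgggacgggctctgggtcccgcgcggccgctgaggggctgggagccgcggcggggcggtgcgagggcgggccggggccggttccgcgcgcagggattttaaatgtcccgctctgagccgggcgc
CENPF: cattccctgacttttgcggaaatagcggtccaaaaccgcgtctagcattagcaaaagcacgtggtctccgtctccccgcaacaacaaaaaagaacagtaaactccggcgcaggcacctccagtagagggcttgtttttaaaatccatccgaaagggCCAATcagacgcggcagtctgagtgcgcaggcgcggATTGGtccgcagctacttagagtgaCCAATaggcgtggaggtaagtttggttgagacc
BUB1: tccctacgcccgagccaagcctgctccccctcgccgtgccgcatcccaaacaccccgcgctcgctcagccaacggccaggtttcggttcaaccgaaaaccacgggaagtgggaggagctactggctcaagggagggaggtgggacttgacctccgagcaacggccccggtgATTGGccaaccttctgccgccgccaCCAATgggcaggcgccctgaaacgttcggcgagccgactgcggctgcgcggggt
CDC6 and CENPF each hold 3 CCAAT boxes and BUB1 holds 2, while CCNE1 holds none of the letters searched. The letters searched were exact spellings, so near spellings, such as tttggcgg in CDC6 beside the E2F spelling TTTGGCGC, were not marked or counted. A promoter without the letters can therefore still hold related sites.

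Letters of known cell cycle elements were searched in the same 250 bases, as a description with no test. Of the 44 genes, 35 had a sequence, and MCM4, MCM5, GINS4, CCNE2, E2F8, AURKA, BIRC5, TTK and TPX2 had none in the table. The CHR element (TTTGAA or TTCGAA, both strands) was in 10 of 17 mitotic promoters (58.8%), 2 of 18 S phase promoters (11.1%) and 17.2% of all 27305 promoters. The E2F letters (TTTCCCGC, TTTGGCGC, TTTCGCGC or TTTGCCGC, both strands) were in 9 of 18 S phase promoters (50%), 2 of 17 mitotic promoters (11.8%) and 3.4% of all. The CCAAT box was in 66.7% of the S phase, 88.2% of the mitotic and 37.0% of all promoters. E2F spellings on opposite strands can overlap, as in MCM6. Genes of either direction hold the letters: KIF23, which rose, and CCNB2, which was lower, both hold the CHR element, and CENPE, which rose most, holds none of the letters. The following windows of 30 bases show the CHR element in capitals for CCNB2 (chr15:59105105-59105134, plus), PLK1 (chr16:23678848-23678877, plus) and KIF23 (chr15:69414282-69414311, plus), and the E2F letters for CDT1 (chr16:88803743-88803772, minus), MCM3 (chr6:52284898-52284927, minus), MCM7 (chr7:100101566-100101595, plus) and E2F1 (chr20:33686387-33686416, minus), each on the genome strand named.
CCNB2: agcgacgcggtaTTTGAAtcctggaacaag
PLK1: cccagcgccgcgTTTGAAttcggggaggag
KIF23: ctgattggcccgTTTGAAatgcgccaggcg
CDT1: ttcccgccaaaTTTCCCGCgggcgccctgg
MCM3: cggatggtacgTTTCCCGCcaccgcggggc
MCM7: caggcgccgggTTTCCCGCggtccgagctg
E2F1: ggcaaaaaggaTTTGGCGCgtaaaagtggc
In KIF23 the CHR element lies 55 to 50 bases before the start, beside a CCAAT box.

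Origin licensing and MCM helicase genes were mostly lower in the FR groups. In FR1 against hnCD16, 6 of 9 were lower and 2 higher (40% and 39.1% of all genes), and in FR2 against CTRL all 9 were lower (41.7% of all genes). CDC6, the ATPase that helps the origin recognition complex to load MCM, lies on chromosome 17 at 40287879 to 40304657 on the plus strand of GRCh38 (GENCODE v44), behind the promoter with 3 CCAAT boxes printed with those of CCNE1, CENPF and BUB1. Its level was 147, 148 and 139 TPM in the CTRL libraries, 146, 152 and 144 in hnCD16, 50.5, 51.8 and 48.9 in FR1 and 47.9, 47.2 and 47.2 in FR2. All 6 FR libraries were below all 6 control libraries, and FR1 and FR2 differed little. The log2 fold change was -1.46 (SE 0.0592, adjusted p = 1.39e-13) in FR1 and -1.57 (SE 0.0594, adjusted p = 5.07e-14) in FR2 against hnCD16, and -1.29 and -1.39 against CTRL. FR1 and FR2 differed by 0.10 (SE 0.0602, adjusted p = 0.199).

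ORC1, the largest subunit of the origin recognition complex, was at 47.5 ± 1.84 TPM (SD, n = 3) in CTRL, 41.0 ± 2.65 in hnCD16, 30.6 ± 1.34 for FR1 and 23.04 ± 1.70 for FR2, and its log2 fold changes against hnCD16 were -0.35 (FR1) and -0.76 (FR2). CDT1, which brings MCM to the origin, was at 31.0 ± 2.09 TPM in CTRL, 20.7 ± 0.873 in hnCD16, 15.6 ± 1.59 for FR1 and 16.4 ± 1.03 for FR2. MCM6 was at 370.0 ± 12.7, 392 ± 20, 235 ± 4.38 and 208 ± 5.17 TPM in the same order. All 3 were lower in both FR groups than in both control groups. The subunits of the hexamer did not move together. MCM2 was at 66.1 ± 1.25 TPM in CTRL, 41.1 ± 0.546 in hnCD16, 54.0 ± 1.65 for FR1 and 49.96 ± 1.75 for FR2, between the controls. It was therefore higher in FR1 than in hnCD16 (0.46, SE 0.0518, adjusted p = 2.13e-07), while against CTRL its log2 fold change was -0.07 (SE 0.0509, adjusted p = 0.199). MCM5 was higher in FR1 than in hnCD16 by 0.25 and lower than in CTRL (log2 fold change -0.22), both past the test. MCM3 and MCM7 were lower in FR1 and FR2 against each control, with log2 fold changes of -0.88 to -0.17, and MCM4 was at -0.00 in FR1 and -0.28 in FR2 against hnCD16, of which only the second passed the test.

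Of the CMG genes, CDC45, GINS1, GINS2 and GINS4 were lower and GINS3 higher in FR1 against hnCD16. GINS1, which with its partners forms the GINS ring at the helicase, was at 145, 143 and 137 TPM in CTRL, 136, 142 and 138 in hnCD16, 69.2, 66.9 and 68.7 for FR1 and 74.5, 71.0 and 67.9 for FR2. The FR libraries again lay apart from the controls, and FR1 and FR2 overlapped. The log2 fold change was -0.96 (SE 0.0560, adjusted p = 2.86e-11) in FR1 and -0.91 in FR2 against hnCD16, and -0.84 and -0.79 against CTRL. CDC45, the partner of MCM and GINS in the helicase, was at 132 ± 4.03 and 127 ± 2.45 TPM in CTRL and hnCD16, and at 70.2 ± 2.21 and 65.9 ± 2.22 in FR1 and FR2. GINS3, a subunit of the same ring, went the other way, from 39.7 ± 1.02 and 38.0 ± 2.71 TPM in CTRL and hnCD16 to 63.4 ± 2.62 for FR1 and 43.8 ± 1.63 for FR2. Set against hnCD16, the log2 difference was 0.81 (SE 0.0636, adjusted p = 1.74e-09) in FR1 and 0.27 (SE 0.0648, adjusted p = 0.00108) in FR2, and FR1 exceeded FR2 by 0.55 (SE 0.0630, adjusted p = 6.06e-06).

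The genes of clamp and nucleotide supply were split. RRM2, the small subunit of ribonucleotide reductase, was at 311, 317 and 294 TPM in CTRL, 306, 332 and 317 in hnCD16, 416, 432 and 423 for FR1 and 415, 386 and 382 for FR2. Every FR library was above every control library. The log2 fold change was 0.48 (SE 0.0550, adjusted p = 3.24e-07) in FR1 and 0.36 in FR2 against hnCD16, and 0.68 and 0.56 against CTRL. RRM1, the large subunit of the same enzyme, was at 399 ± 21.8 TPM in hnCD16, 294 ± 6.14 in FR1 and 248.8 ± 10.4 in FR2, and was lower in both (-0.37 and -0.62). TYMS, which makes thymidylate, was lower in FR1 and FR2 against each control, with log2 fold changes of -0.55 to -0.33. PCNA, the sliding clamp and the most abundant of the 44 at 1544 to 1709 TPM in group mean, was not called against hnCD16 (-0.08 and -0.02). Against CTRL it was at 0.16 in FR1 and 0.22 in FR2, past the test. Scaled by totals alone the value in FR2 was 0.088 (adjusted p = 0.0621), and by limma on log2(TPM + 1) it was 0.011 (adjusted p = 0.758), neither past the test. The value in FR1 turned to -0.03 when libraries were scaled by their totals and lost its call without CTRL replicate 3 (0.10, adjusted p = 0.0709).

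CCNE1 and CCNE2, the 2 E-type cyclins, moved in opposite directions. CCNE1 lies on chromosome 19 at 29811991 to 29824312 on the plus strand, and its printed promoter held none of the letters searched. It was at 12.5, 15.02 and 14.6 TPM in CTRL, 11.3, 11.3 and 11.5 in hnCD16, 23.9, 24.5 and 26.6 for FR1 and 27.2, 28.9 and 28.8 for FR2. The FR libraries were all above the controls, and FR2 was above FR1 in each library. The log2 fold change against hnCD16 was 1.19 (SE 0.0695, adjusted p = 2.62e-11) in FR1 and 1.36 (SE 0.0687, adjusted p = 2.95e-12) in FR2, and against CTRL it was 1.07 and 1.24. CCNE2 was at 69.2 ± 7.19 and 70.8 ± 5.76 TPM in CTRL and hnCD16 and at 43.96 ± 1.63 and 38.8 ± 0.437 in FR1 and FR2, with log2 fold changes of -0.62 and -0.81 against hnCD16. Among the E2F factors, E2F8, a repressor of the family, was higher in FR1 and FR2 against each control (0.49 to 0.73). E2F1 and E2F2, activators of S phase genes, were higher in FR2 than in hnCD16 by 0.52 and 0.70. Against CTRL they were at 0.23 and 0.31 in FR2, past the test, but E2F1 lost its call when libraries were scaled by totals alone (0.101, adjusted p = 0.0951), and by limma on log2(TPM + 1) both did, at 0.021 (adjusted p = 0.707) and 0.078 (adjusted p = 0.145). In FR1 the activators were less high: E2F1 was at 0.07 (adjusted p = 0.332) against hnCD16 and -0.22 against CTRL, and E2F2 at 0.43 and 0.04.

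**Figure D2:**
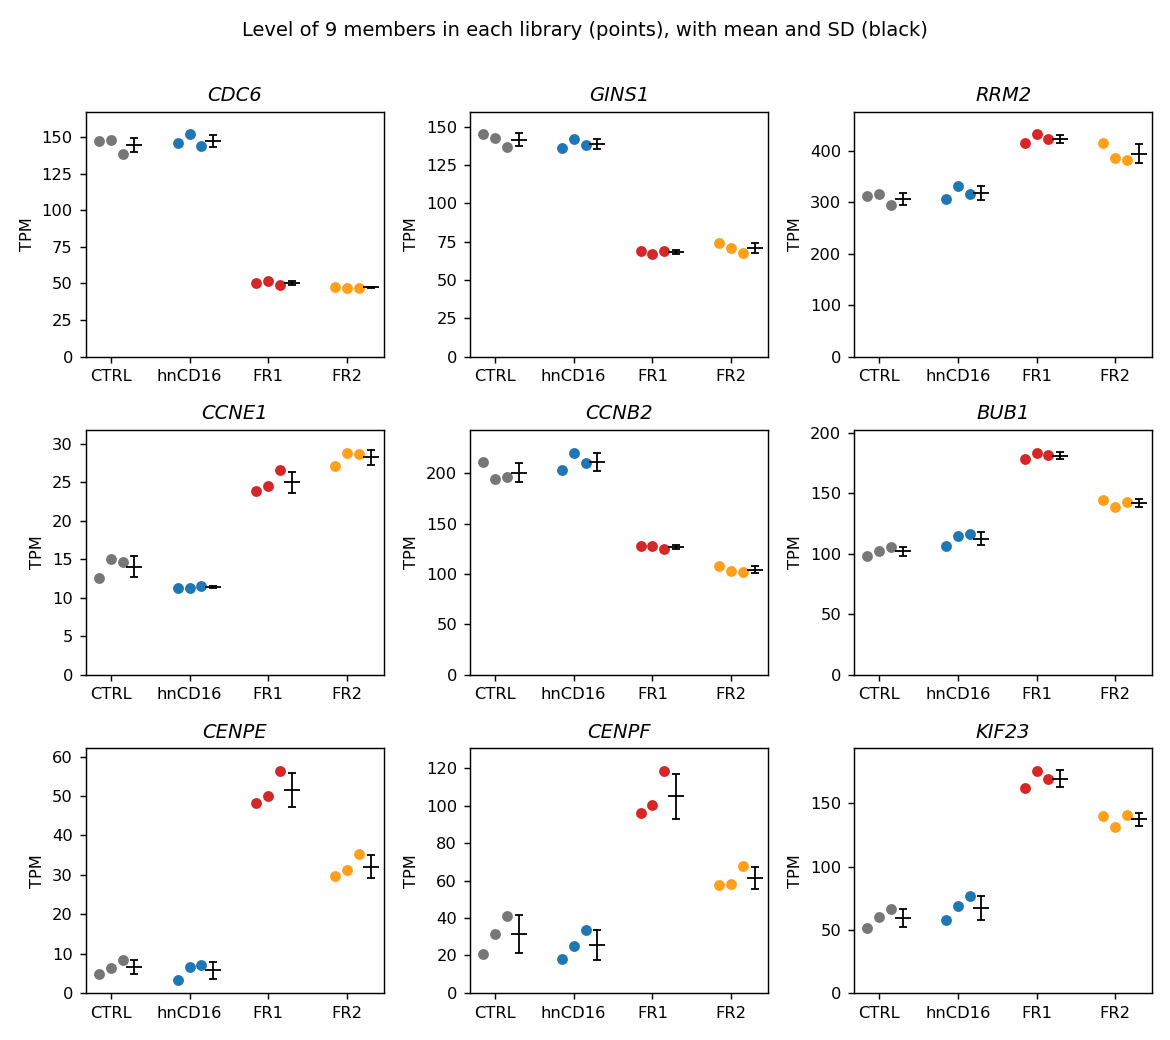
Level in TPM (vertical axis, from 0) in each library of the 4 groups for the gene with the largest change in each of the 8 roles and for CENPF, with points for libraries and bars for the mean and SD of 3 libraries. In every panel the 6 FR libraries lie apart from the 6 CTRL and hnCD16 libraries, below them for CDC6, GINS1 and CCNB2 and above them for the other 6 genes. The genes were picked by their change in FR1 against hnCD16 in these libraries, so this separation is a description of picked genes.

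Of the mitotic cyclins with CDK1 and CDC20, 4 of 5 were lower in FR2 against hnCD16 (41.4% of all genes) and 1 of 5 in FR1 (40% of all genes). CCNB2, a cyclin B that works with CDK1, was at 212, 194 and 197 TPM in CTRL, 203, 221 and 211 in hnCD16, 128, 127 and 125 for FR1 and 108, 103 and 102 for FR2. Each FR library was below each control library, and FR2 was below FR1. The log2 fold change was -0.67 (SE 0.0599, adjusted p = 1.11e-08) in FR1 and -0.96 (SE 0.0605, adjusted p = 7.43e-11) in FR2 against hnCD16, and -0.45 and -0.74 against CTRL. Its relative CCNB1 was at 323 ± 18.7 TPM in hnCD16, 302 ± 4.59 in FR1 and 232 ± 9.66 in FR2, with log2 fold changes of -0.03 (adjusted p = 0.692) and -0.42 (adjusted p = 8.46e-06). CCNA2, which acts in S phase and G2, was higher in FR1 than in CTRL by 0.41 and lower in FR2 than in hnCD16 (-0.19). CDK1, the kinase of mitotic entry, was at 397 ± 11.2, 413 ± 15.9, 369 ± 9.41 and 389.7 ± 8.65 TPM in CTRL, hnCD16, FR1 and FR2. Its small differences from CTRL (0.11 in FR1 and 0.18 in FR2) turned negative on the TPM scale (-0.11 and -0.03), and in FR1 the call was lost without CTRL replicate 3 (0.09, adjusted p = 0.0724), FR1 replicate 1 (0.10, adjusted p = 0.059) or FR1 replicate 2 (0.09, adjusted p = 0.0872). CDC20, an activator of the anaphase-promoting complex, was lower against CTRL in both (-0.43 and -0.72). Against hnCD16 it was at -0.11 in FR1, not past the test, and at -0.40 in FR2.

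Of the 8 kinase and checkpoint genes, 3 were higher and 3 lower in FR1 against hnCD16, near the 39.1% and 40% of all genes. The lower ones were TTK (-0.42), MAD2L1 (-0.20) and AURKB (-0.15). BUB1, a kinase of the spindle checkpoint on chromosome 2 at 110637528 to 110678063 (minus strand), was at 98.5, 102 and 105 TPM in CTRL, 106, 115 and 116 in hnCD16, 178, 184 and 182 for FR1 and 145, 139 and 143 for FR2. The groups FR1, FR2 and the controls did not overlap. BUB1 rose by 0.76 (SE 0.0410, adjusted p = 9.08e-12) in FR1 and 0.40 in FR2 against hnCD16, and by 1.05 and 0.69 against CTRL. BIRC5, the survivin subunit of the chromosomal passenger complex, was higher in FR1 and FR2 against each control (0.48 to 0.69). Its partner kinase AURKB was lower than CTRL in FR1 (-0.38, adjusted p = 8.91e-06). PLK1, a kinase of mitotic entry and exit, was at 59.0 ± 2.57, 40.4 ± 2.54, 35.9 ± 2.69 and 30.9 ± 1.35 TPM in CTRL, hnCD16, FR1 and FR2, and was lower than CTRL in both FR groups (-0.50 and -0.72). Against hnCD16 it was at -0.10 in FR1, not past the test, and at -0.32 in FR2. BUB1B, the BUBR1 checkpoint protein, was higher in FR1 (0.32 against hnCD16, adjusted p = 2.59e-05), and in FR2 it was at -0.08 (adjusted p = 0.152).

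The largest rises in FR1 were in the kinetochore genes CENPE and CENPF. In FR2 CENPE also rose most, while CENPF rose less than CCNE1. CENPE, the kinesin that carries chromosomes to the spindle equator, lies on chromosome 4 at 103105349 to 103198445 (minus strand). It was at 4.84, 6.32 and 8.33 TPM in CTRL, 3.35, 6.65 and 7.20 in hnCD16, 48.2, 50.1 and 56.4 for FR1 and 29.7, 31.2 and 35.4 for FR2. Every FR library was above every control library by more than the range within any group, and FR1 lay above FR2. The fold change against hnCD16 was 9.48 (log2 fold change 3.24, SE 0.178, adjusted p = 1.14e-11) in FR1 and 5.86 (2.55, SE 0.177, adjusted p = 2.98e-10) in FR2, and against CTRL 9.29 and 5.74. CENPF, a large kinetochore protein of G2 and mitosis on chromosome 1 at 214603185 to 214664574 (plus strand), was at 20.98, 31.6 and 41.2 TPM in CTRL, 18, 25.02 and 33.6 in hnCD16, 96.1, 100.3 and 119 for FR1 and 57.4, 58.1 and 67.9 for FR2. The controls ranged widely but stayed below all FR libraries. The fold change against hnCD16 was 4.33 (log2 fold change 2.12, SE 0.180, adjusted p = 5.58e-09) in FR1 and 2.51 (1.33, SE 0.178, adjusted p = 2.09e-06) in FR2. In FR2 against CTRL the log2 fold change of 1.19 dropped to 0.995, just under the fold threshold, without CTRL replicate 1. CENPA, the centromeric histone, changed little, being higher in FR1 against each control by 0.25 and at 0.04 in FR2. Against CTRL the call in FR1 was lost when libraries were scaled by totals alone (0.054, adjusted p = 0.316) and by limma on log2(TPM + 1) (0.038, adjusted p = 0.35).

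KIF23, the kinesin of the central spindle in cytokinesis, lies on chromosome 15 at 69414246 to 69448427 (plus strand), and its CHR window is among those printed. It was at 51.8, 60.1 and 66.5 TPM in CTRL, 57.7, 68.4 and 76.6 in hnCD16, 163, 176 and 169.7 for FR1 and 140.0, 132 and 141 for FR2. All FR libraries exceeded all controls, and FR1 exceeded FR2. The log2 fold change was 1.39 (SE 0.0693, adjusted p = 2.9e-12) in FR1 and 1.08 (SE 0.0691, adjusted p = 8.86e-11) in FR2 against hnCD16, and 1.72 and 1.42 against CTRL. KIF11, the motor of spindle bipolarity, did not share this: it was at 62.5 ± 12.7, 55.0 ± 11.3, 49.2 ± 1.13 and 43.0 ± 0.644 TPM in CTRL, hnCD16, FR1 and FR2, with a log2 fold change of -0.08 (adjusted p = 0.477) in FR1 against hnCD16. TPX2, a spindle assembly factor, was lower in FR1 and FR2 against each control (-0.49 to -0.21). MKI67, the Ki-67 protein used as a proliferation marker, was at 63.9 ± 8.51, 45.7 ± 5.41, 37.2 ± 2.79 and 34.1 ± 0.463 TPM, and was lower in FR2 against each control (-0.35 and -0.70) and in FR1 against CTRL (-0.57). In FR1 against hnCD16 it was at -0.23 (adjusted p = 0.00765), a call lost without FR1 replicate 1 (-0.20, adjusted p = 0.0507). TOP2A, the decatenating topoisomerase, was at 281 ± 13 TPM in FR1 and 246 ± 75.9 in CTRL, and its log2 fold change of 0.42 (adjusted p = 0.0286) was not past the test with DESeq2 (adjusted p = 0.0982) or without CTRL replicate 1 (0.23, adjusted p = 0.132), CTRL replicate 2 (adjusted p = 0.0742) or any 1 FR1 library (adjusted p 0.0609 to 0.0696).

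Ratios of TPM within a library do not depend on how libraries are scaled to each other. CCNE1 over CCNE2 ran from 0.149 to 0.211 over the 6 control libraries, from 0.557 to 0.579 over FR1 and from 0.699 to 0.754 over FR2. GINS3 over GINS1 was 0.263 to 0.289 in the controls, 0.879 to 0.961 in FR1 and 0.6 to 0.634 in FR2. RRM2 over RRM1 was 0.785 to 0.865 in the controls, 1.4 to 1.48 in FR1 and 1.52 to 1.63 in FR2. So the partner that was lower in the controls gained on the other in each of these pairs, by these ranges without overlap. KIF23 over KIF11 was 0.892 to 1.33 in the controls, 3.37 to 3.49 in FR1 and 3.11 to 3.26 in FR2. BUB1 over BUB1B was 1.17 to 1.42 in the controls against 1.82 to 1.94 in the FR libraries. MCM6 over MCM2, in contrast, separated the controls from each other, being 5.51 to 5.69 in CTRL, 9.2 to 9.98 in hnCD16 and 4.12 to 4.56 in the FR groups. The summed TPM of the 23 S phase genes over that of the 21 mitotic genes was 1.55 to 1.79 in the controls, 1.31 to 1.32 over FR1 and 1.49 to 1.55 over FR2. The ranges of FR2 and the controls thus met at 1.55. PCNA alone, at 1544 to 1709 TPM in group mean, was a large part of the S phase sum of 3660 to 4730 TPM. The pairs were chosen with earlier results known, and the separations are a description.

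**Figure D3:**
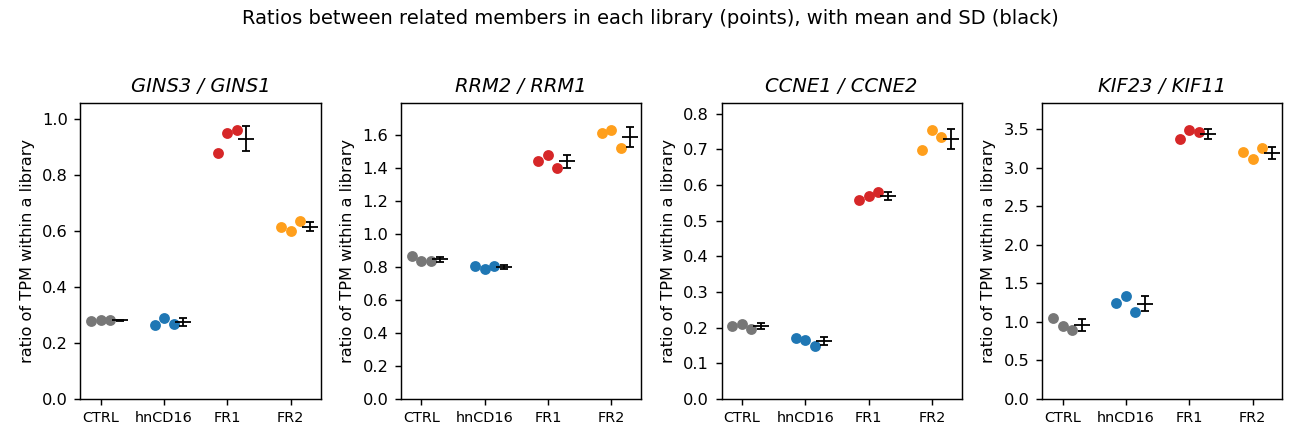
TPM of one gene over that of its partner in each library (vertical axis, ratio without unit) for GINS3 over GINS1, RRM2 over RRM1, CCNE1 over CCNE2 and KIF23 over KIF11, with points for the 3 libraries of each group. In each panel all FR libraries are above all control libraries, and FR1 and FR2 do not overlap. FR1 is above FR2 for GINS3 over GINS1 (0.879 to 0.961 against 0.6 to 0.634) and KIF23 over KIF11. It is below FR2 for RRM2 over RRM1 and CCNE1 over CCNE2.

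FR1 and FR2 differ in the 2B4 domain and lie on the same side of the marker split. They also differ in the receptor transcript, with FCGR3A at 559 to 567 counts against 1012 to 1132, and its part in the differences was not tested. Most mitotic genes were higher in FR1 than in FR2. Of the 21 mitotic genes, 16 were higher and 1 was lower in FR1, with a median log2 fold change of 0.29, and of the 23 S phase genes 8 were higher and 3 lower, with a median of 0.10; over all genes 17.7% were higher and 18.5% lower (36.2% in either direction), with a median of -0.004. No member passed the fold threshold, which 1.93% of all genes did. CENPF (0.79, SE 0.172, adjusted p = 0.00173) and CENPE (0.69, SE 0.156, adjusted p = 0.00216) differed most. BUB1 (0.36, adjusted p = 4.78e-06), BUB1B (0.40, adjusted p = 1.97e-05), CCNB1 (0.39, adjusted p = 0.000135) and CCNB2 (0.29, adjusted p = 0.00125) were also higher in FR1. AURKB was the mitotic gene that was lower (-0.22, adjusted p = 0.00741). Of the S phase genes, GINS3, ORC1 (0.41) and MCM4 (0.27) were higher, and E2F1 (-0.45, adjusted p = 2.36e-05) and E2F2 (-0.27, adjusted p = 0.000582) were lower in FR1. CCNE1 was at -0.17 (adjusted p = 0.0412), a call lost without FR1 replicate 1 (-0.18, adjusted p = 0.0682), FR1 replicate 2 (-0.16, adjusted p = 0.104), FR2 replicate 2 (-0.14, adjusted p = 0.161) or FR2 replicate 3 (-0.16, adjusted p = 0.111). Scaled by totals alone, 18 members were higher and 7 lower in FR1, in place of 24 and 4. Without 1 library the count of members higher in FR1 was 18 to 21 in place of 24. The log2 fold changes ran with the GC content of the transcripts. The Spearman rho was -0.452 across the 44 genes and -0.309 across all 13471 genes matched to a transcript (a description across genes, which share the libraries). With the median of the genes of the same GC decile subtracted, the median of the mitotic genes went from 0.29 to 0.25. That of the S phase genes went from 0.104 to 0.103. All 24 higher and 4 lower genes kept their sign. This says little, because the subtracted medians (-0.178 to 0.122) were smaller in size than most called changes. The part of GC content in these differences was not tested further.

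hnCD16 against CTRL asks what the unfused receptor does. In this comparison 7 S phase genes were higher and 8 lower, and 9 mitotic genes higher and 4 lower, where 21.6% of all genes were higher and 21.4% lower (43% in either direction). No member passed the fold threshold, as against 0.527% of all genes. The split depended on scaling, with 16 members higher and 12 lower here and 10 and 16 when libraries were scaled by their totals alone. By limma on log2(TPM + 1), which also changes unit, offset and test, it was 7 and 19. The largest differences were lower levels of MCM2 (-0.54, SE 0.0515, adjusted p = 9.84e-06), MCM5 (-0.47, SE 0.0529, adjusted p = 1.64e-05), CDT1 (-0.43), MCM3 (-0.40) and PLK1 (-0.40). MCM7 (-0.34), CDC20 (-0.32) and MKI67 (-0.35) were lower too. Higher genes were KIF23 (0.33), CCNB1 (0.33), CCNA2 (0.31), MAD2L1 (0.29), BUB1 (0.29) and RRM1 (0.28), and MCM6 at 0.23. By limma on log2(TPM + 1) the calls of KIF23 (0.18, adjusted p = 0.162) and MCM6 (0.081, adjusted p = 0.133) were lost. BUB1B was at 0.15 (adjusted p = 0.0328), which was -0.002 on the TPM scale and lost its call without CTRL replicate 1 (0.10, adjusted p = 0.133), CTRL replicate 2 (0.12, adjusted p = 0.164), hnCD16 replicate 2 (0.12, adjusted p = 0.129) or hnCD16 replicate 3 (0.14, adjusted p = 0.081). CDC6 was at 0.17 (adjusted p = 0.0216), a call lost without CTRL replicate 2 (0.15, adjusted p = 0.0631), CTRL replicate 3 (0.10, adjusted p = 0.139), hnCD16 replicate 1 (0.15, adjusted p = 0.0701) or hnCD16 replicate 2 (0.14, adjusted p = 0.0954).

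These differences between hnCD16 and CTRL followed base composition. The 12 lower genes had transcripts of 44.7 to 64.3% GC (median 56.6%), and the 16 higher genes 34.6 to 48.6% (median 42.4%). The Spearman rho of log2 fold change with GC content was -0.726 across the 44 genes and -0.53 across all 13471 matched genes, given as a description. With the median of all genes of the same GC decile subtracted, MCM2 was at -0.34, MCM5 at -0.27, MCM3 at -0.24 and MKI67 at -0.29. These came closer to 0 by the subtraction, as did further genes of high GC content. CDT1 was then at -0.171, PLK1 at -0.200, MCM7 at -0.137, CDC20 at -0.123 and E2F2 at -0.188. AURKB went from -0.224 to -0.026 and E2F1 from -0.291 to -0.033. In all, 12 of 12 lower and 14 of 16 higher genes kept their sign. The median over the mitotic genes went from 0.119 to -0.004 and that over the S phase genes from 0.008 to -0.004. Across the 44 genes the rho was -0.405 in FR1 and -0.278 in FR2 against CTRL, and -0.065 and 0.067 against hnCD16, where all matched genes had -0.047, 0.028, 0.067 and 0.137 in the same order.

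**Figure D4:**
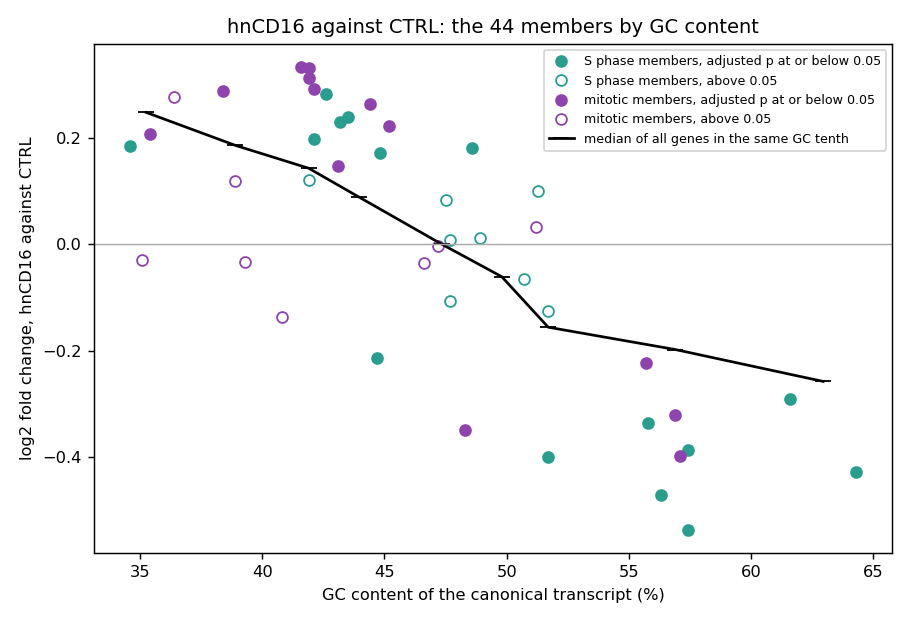
Log2 fold change of hnCD16 against CTRL (vertical axis) against GC content of the transcript in percent (horizontal axis) for the 44 genes, with filled points where the adjusted p was at most 0.05 and a black line for the median of all genes of the same GC decile. Higher genes sit at the left, with 34.6 to 48.6% GC, and lower genes mostly at the right, with 44.7 to 64.3%, along the slope that the line of all genes also has.

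The spread between libraries was uneven among members. In CTRL and hnCD16 the library numbered 1 was the lowest and the library numbered 3 the highest for TOP2A, CENPF, CENPE, TTK and KIF11. The transcripts of these 5 genes have 35.1 to 40.8% GC. On the log2 scale, library 3 also exceeded library 1 for KIF23 (41.6% GC), by 0.233 in CTRL and 0.294 in hnCD16. MKI67 (48.3% GC) did so by 0.261 and 0.143. Low GC content did not always go with this: CDK1 (35.4% GC) was at -0.063 in CTRL, and MAD2L1 (38.4% GC) at -0.21 and -0.073. TOP2A was at 166, 255 and 317 TPM in CTRL, 182, 214 and 326 in hnCD16, 268, 280 and 294 for FR1 and 195, 195 and 223 for FR2. The difference of log2 level between libraries 3 and 1 was 0.806 and 0.735 in CTRL and hnCD16 for TOP2A, 0.838 and 0.79 for CENPF, and 0.631 and 0.943 for CENPE. Across all 13471 genes this difference had a Spearman rho with transcript length of 0.396 in CTRL and 0.32 in hnCD16 but 0.145 in FR1 and 0.132 in FR2. For TOP2A, CENPF, CENPE, TTK and KIF11 the highest TPM over the lowest was larger within CTRL and within hnCD16 than within FR1 or FR2. With the libraries numbered 1 of CTRL and hnCD16 left out together (an alternative chosen after the data were seen), CENPE in FR1 against hnCD16 was at 2.99 and CENPF at 1.94 on the log2 scale, and KIF23 in FR2 against hnCD16 was at 1.01.

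**Figure D5:**
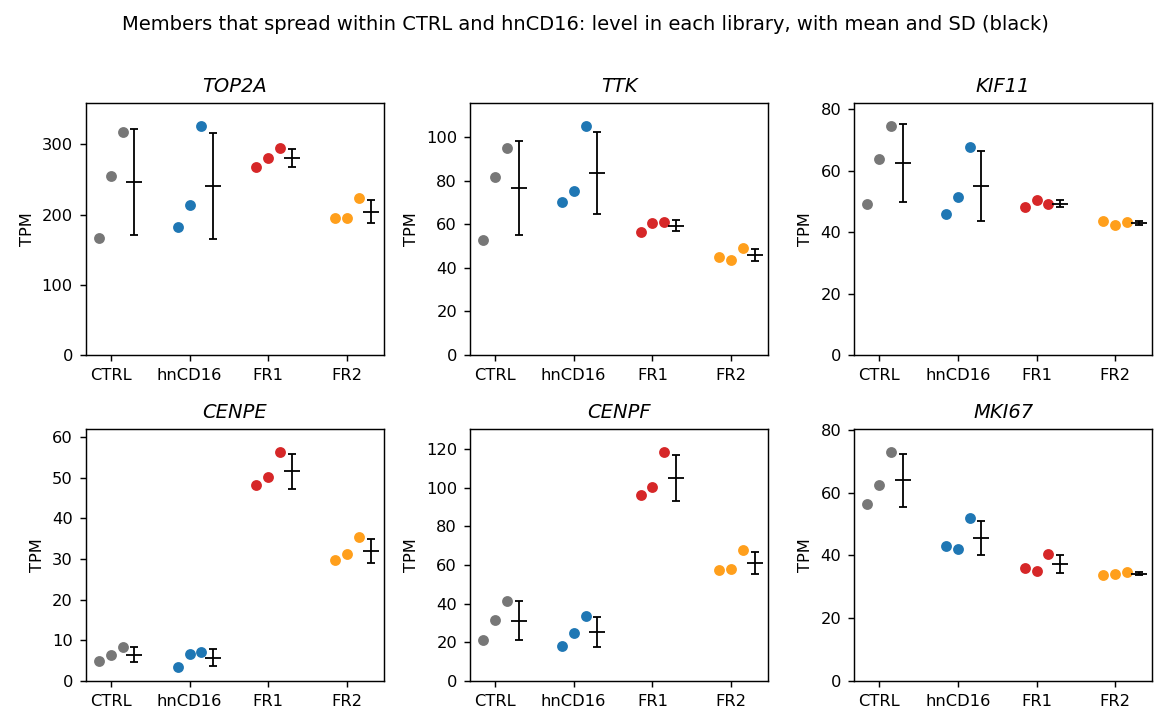
Level in TPM (vertical axis) of TOP2A, TTK, KIF11, CENPE, CENPF and MKI67 in each of the 12 libraries, ordered by group and library number (horizontal axis). The 3 CTRL and the 3 hnCD16 libraries are spread widely for TOP2A, from 166 to 317 TPM and from 182 to 326 TPM, and the FR libraries of a group lie close together.

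The transcript table splits each gene by isoform, as estimated by RSEM. Of 98 transcripts of the 44 genes that reached 10% of their gene in a library, 10 had shares that did not overlap between the FR and the control libraries, close to the 8.49% of 45927 such transcripts over all tested genes with a count in every library, and 20 of the genes had 1 transcript with at least 90% in every library. For AURKB, NM_004217 held 31.6 to 49.4% in the FR libraries and 54 to 70% in the controls, and NM_001256834 15.9 to 31.6% against 0 to 9.96%. For BIRC5, NM_001012271 held 14.9 to 19.5% against 8.72 to 13.5%. That AURKB and BIRC5 belong to the same complex is background and not a result of these shares. Transcripts of MCM5 and PCNA did not overlap either. For MCM5, NM_006739 held 47.9 to 53.5% in the FR libraries against 38.5 to 45.7% in the controls. For PCNA, NM_182649 held 98.5 to 99.5% against 97.2 to 98.3%. For RRM2 the transcript NM_001165931 held 2.26 to 3.8% in the FR libraries and 6.45 to 10.1% in the controls, and for CDC45 NM_003504 held 80.4 to 84.1% against 66.8 to 78.7%. Estimates of shares between overlapping isoforms are uncertain, and no test was made of them.

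Other genes of the same pathways were counted from lists of their own. Of 54 other replication genes in FR1 against hnCD16, 17 were higher and 28 lower (median -0.20), and of 66 other mitosis genes 38 were higher and 17 lower (median 0.19), where 39.1% of all genes were higher and 40% lower. The epigenetic reader UHRF1 was at 95.38 ± 1.4 TPM in hnCD16 and 22.15 ± 1.23 in FR1 (log2 fold change -2.003), and GMNN, the inhibitor of CDT1, at 313.5 ± 10.8 and 103 ± 1.84 (-1.49). TOPBP1, a scaffold of replication and its checkpoint, rose by 1.61, from 75.83 ± 10 TPM in hnCD16 to 224.3 ± 7.54 in FR1. Among the mitosis genes, KIF20B rose by 2.50, from 7.07 ± 2 TPM in hnCD16 to 37.79 ± 2.39 in FR1. ASPM, a spindle pole protein, rose by 1.93, from 16.27 ± 3.76 to 58.2 ± 4.03 TPM. Relative to their level, both spread more widely in hnCD16 than in FR1. CENPW (-1.21) and SKA3 (-1.15), both of the kinetochore, were lower. Kinetochore genes therefore went both ways. Of 17 regulators of the E2F, RB and DREAM system, 9 were higher and 4 lower, against the same background. TFDP2, a partner of E2F factors, was at 221.1 ± 3.15 TPM in CTRL, 218.3 ± 9 in hnCD16, 22.86 ± 0.988 for FR1 and 25.49 ± 2.11 for FR2. It was the largest fall of that list (-2.99 in FR1 against hnCD16, SE 0.0518, adjusted p = 9.25e-19). E2F4 (1.46) and E2F6 (1.22), repressor-type E2F factors, rose, and RBBP4, a histone-binding subunit of the DREAM complex, fell by 0.99. The same lists in FR1 against FR2 gave 28 mitosis genes higher and 4 lower of 66, and 19 replication genes higher and 7 lower of 54, where 17.7% of all genes were higher and 18.5% lower.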

How the data were processed

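RNA from 12 libraries of YT cells was sequenced in 4 groups of 3 (CTRL, hnCD16, FR1, FR2). As the labels and the methods describe it, reads were filtered with SOAPnuke and aligned to GRCh38.p13 with HISAT2 2.1.0 and Bowtie2 2.3.4.3 and quantified with RSEM 1.3.1; DESeq2 1.4.5 is also named in the submitters' processing notes. The authors deposited expected counts and TPM for each gene and transcript in each library. Whether counting used strand is not given in the sources used here. Another 24 per-library columns (FPKM and normalized counts) and 16 average columns were not used, and the deposited comparisons (fold changes and p-values of the authors) were not read. After rounding of the expected counts to integers, 1 fit covered all 12 libraries with edgeR 4.0.16 in R 4.3.3 (TMM normalization, low-count filter by group, quasi-likelihood test), with Benjamini-Hochberg adjustment over all genes tested; the scripts were tested on simulated data, where power was lower for genes of low counts. A gene was called at an adjusted p of at most 0.05, and by fold if the log2 fold change was also at least 1 in size. TPM values are the deposited ones. GC content and length were taken from GENCODE v44 transcripts, promoters from RefSeq (GRCh38.p14). Genes given in every library were the leader of each of 8 roles by size of log2 fold change in FR1 against hnCD16 and each further member called by fold there. The members and all lists were chosen with earlier results of these data known. Alternatives were DESeq2 1.42.0, RLE or library size scaling, no or a stricter low-count filter (10 counts in every library), the 2 groups alone, the library number as a block, limma 3.58.1 on TPM after adding 1 or 0.1 and taking log2, and each library left out in turn. The subtraction of GC medians, the share ranges of transcripts and the fit without the libraries numbered 1 were chosen after the data were seen. Intervals are not given; totals of about equal size (17714550 to 18729013 counts) limit the precision of low counts.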

Additional observations from a re-analysis of the deposited data

How the results depend on the processing

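Of the single settings, library size scaling and limma on TPM moved the most calls; limma on TPM also changes the unit, the offset and the test. With library size only, and with limma on log2(TPM + 1) or log2(TPM + 0.1), the median log2 fold change of all genes shifted by -0.193, -0.209 and -0.216 in FR1 against CTRL, by -0.13, -0.199 and -0.206 in FR2 against CTRL, and by -0.113, -0.137 and -0.147 in hnCD16 against CTRL. Members higher in FR1 against CTRL then numbered 11 under each of the 3 in place of 17, members higher in hnCD16 against CTRL numbered 10, 7 and 7 in place of 16, members lower in hnCD16 against CTRL numbered 19 under both limma fits in place of 12, and members lower in FR1 against FR2 numbered 7 under library size only in place of 4. Under the same 3 settings small differences of FR1 against CTRL changed sign for PCNA (-0.030, -0.054 and -0.054), E2F2 (-0.151, -0.201 and -0.205), CDK1 (-0.079, -0.108 and -0.108) and MAD2L1 (-0.103, -0.127 and -0.128). Under the 2 limma fits signs changed in FR2 against CTRL for CDK1 (-0.028 and -0.028), MAD2L1 (-0.141 and -0.142) and CENPA (-0.160 and -0.163), and in hnCD16 against CTRL for GINS4 (-0.140 and -0.144), TYMS (-0.136 and -0.136) and BUB1B (-0.002 and -0.002). Every other change of sign of a member was between values that were past the test under neither setting. DESeq2 lost 7 calls of members. Leaving out 1 library at a time gave 14 to 15 members higher and 16 to 19 lower in FR1 against hnCD16, 13 and 24 to 25 in FR2 against hnCD16, 15 to 17 and 20 to 23 in FR1 against CTRL, 13 to 15 and 23 to 24 in FR2 against CTRL, 12 to 16 and 11 to 13 in hnCD16 against CTRL, and 18 to 21 and 3 to 4 in FR1 against FR2; it lost 23 calls of members, none of them of the 9 genes given by library in a comparison of an FR group with a control. The library numbers did not pair the samples in every comparison. The mean correlation of deviations of same-numbered libraries was -0.0349 to 0.254, and no comparison had all pairs over 0.1. In hnCD16 against CTRL it was 0.338, 0.0196 and 0.404 for the numbers 1, 2 and 3. The mean there was 0.254. Deviations from a group mean cancel within the group, so the mean for pairs of other numbers (-0.127) follows from it and adds no evidence. Over all groups, 8 of 12 libraries correlated best with their own number. Whether the numbers mark a step shared by these libraries was not tested. The replicate block left 254 member values on the same side of the threshold and moved 10 past it, with CENPE in FR1 against hnCD16 at 3.27. CENPE had 417 to 674 counts in CTRL and 299 to 606 in hnCD16, and its SD was 27% and 36.3% of the mean TPM. CCNE1 had fewer counts, 248 to 282 and 223 to 229, and an SD of 9.48% and 1.12% of the mean. The source of the wide spread of CENPE in the controls was not tested.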
